A study of Mus musculus with 20 samples.

Results

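The collagen genes were followed here through hearts with and without the acyl-CoA synthetase gene Acsl1. Members were all rows of the expression table whose symbol reads Col, a type number, the letter a and a chain number, and 42 of the 21705 rows fit. Of these 42 genes, 29 reached a value of 10 in 5 or more of the 20 libraries and entered the tests, and the other 13 are described at the end of the account of levels. The rule uses names only, and no measured value.

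Each library held poly(A) RNA from the heart ventricle of male mice on the C57Bl/J6 background, and each of 4 groups had 5 libraries, described by the submitters as biological replicates. Acsl1H-/- mice, called knockout here, and their Acsl1flox/flox littermates, called control, were all injected with tamoxifen at 75 mg/kg on 4 consecutive days, starting at an age of 6 to 8 weeks, and hearts were taken 2 weeks after induction. Within each genotype, 1 group received rapamycin, an inhibitor of the kinase mTOR, at 1 mg/kg daily for 2 weeks, and the other the vehicle of PBS, ethanol, Tween 20 and PEG-400. The 4 groups are therefore control vehicle, knockout vehicle, control rapamycin and knockout rapamycin, and no group was free of tamoxifen or of daily injections. The promoter that drives the recombinase in Acsl1H-/- mice is not named by the labels. No group had the recombinase with Acsl1 intact, so the recombinase and the loss of Acsl1 cannot be told apart. Ventricle holds many cell types, and in such bulk RNA fewer cells of a type and less RNA per cell cannot be told apart.

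Collagens are extracellular proteins of 3 chains wound into a triple helix, built from long repeats rich in glycine and proline. Fibril-forming collagens bear load between the muscle cells of the heart, type IV collagens form the sheet-like network of basement membranes around muscle cells and capillaries, and smaller types decorate or link these structures. In the heart the fibril-forming chains are made mostly by fibroblasts, and type IV chains by endothelial cells, pericytes and fibroblasts. The chains are hydroxylated, glycosylated and folded in the endoplasmic reticulum, trimmed outside the cell and cross-linked by lysyl oxidases.

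Values are expression estimates that the authors scaled to a common upper quartile per library, so they compare 1 gene between libraries. The libraries' depth, implied by the steps between low values, was 11.5 to 21.1 M reads. Acsl1 stood at 6373 to 13430 in control vehicle, 740.5 to 1682 in knockout vehicle, 10520 to 16660 in control rapamycin and 631 to 1950 in knockout rapamycin libraries, with no overlap between genotypes. Control vehicle libraries 1 and 3 stood apart from the rest: a score that sets the deviation of long transcripts against that of short ones was -0.99 and -1.08 there and -0.42 to 0.54 in the other 18 libraries. Of the 29 tested collagens, 24 lie in the longest quartile of transcript lengths (4718 bases or more) and 0 in the shortest, so results are also given without those libraries.

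To compare levels between genes, values were divided by the length of the longest transcript in kilobases. On this per-kilobase scale, and as means of 20 libraries, the most abundant member was Col4a1 at 1440.0, followed by its partner Col4a2 at 1060.5, then Col3a1 at 818, Col1a2 at 647, Col1a1 at 467, Col6a1 at 465, Col6a2 at 444 and Col15a1 at 354. These 8 genes made up 88.6% of the summed per-kilobase collagen level. By family, the basement membrane chains held 40.9%, the fibril-forming chains 34.0%, the beaded-filament chains of type VI 14.3%, the multiplexins 6.40%, the short-chain collagens 2.24%, the fibril-associated collagens 1.92% and the transmembrane collagens 0.229%. Col6a3, another type VI chain, Col21a1 and Col26a1 had no row under these names. All shares here leave them out, so the type VI share is of an incomplete family. In group means, the basement membrane share was 45.5% in control vehicle, 38.5% in knockout vehicle, 42.7% in control rapamycin and 38.6% in knockout rapamycin, and the fibril-forming share 30.0%, 36.0%, 32.6% and 35.8% in the same order. The 20-library ranges of neighbours in the order of levels overlapped for every neighbouring pair of tested genes. Among the 27 tested genes never at 0, the highest library was 2.66-fold (Col20a1) to 23.5-fold (Col8a2) above the lowest.

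**Figure D1:**
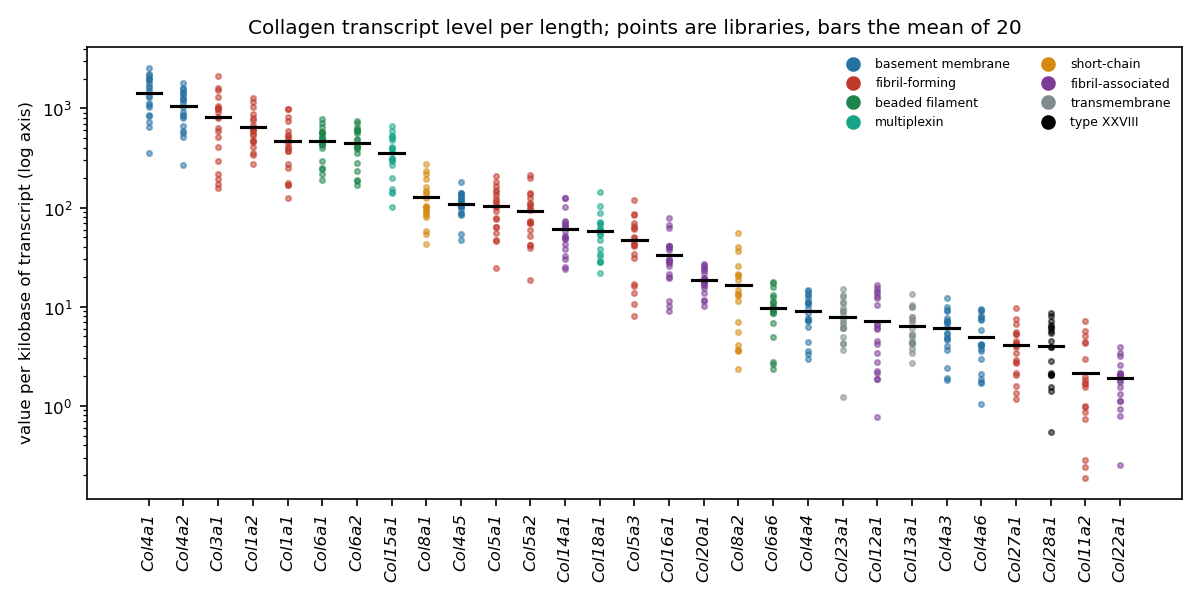
Level of each of the 29 tested collagen genes per kilobase of transcript, on a log axis; points are the 20 libraries (3 values of 0, 1 of Col28a1 and 2 of Col11a2, cannot be drawn), bars the means of 20 libraries, and colours the families. Col4a1 and Col4a2 lie highest at 1440.0 and 1060.5, and Col22a1 lowest at 1.90.

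Below the leading 8 genes, the means per kilobase were 127 for Col8a1, 109.8 for Col4a5, 104 for Col5a1, 93.2 for Col5a2, 60.3 for Col14a1 and 57.5 for Col18a1. Col5a3 (47.4), Col16a1 (33.4), Col20a1 (18.6) and Col8a2 (16.7) lay between 10 and 50. Col6a6, Col4a4, Col23a1, Col12a1, Col13a1, Col4a3, Col4a6, Col27a1, Col28a1, Col11a2 and Col22a1 were under 10.

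Among the 13 members that were not tested, Col6a4, a type VI chain, was listed at 0 in all 20 libraries. Col11a1, a chain of the cartilage fibril collagen type XI, reached 10 in 3 libraries, with a highest value of 22.9 in control rapamycin library 1. Col6a5 reached 10 in 2 libraries, with 24.1 in control vehicle library 5. Col2a1, the main collagen of cartilage, stood at 41.9 in knockout vehicle library 1 and at or under 3.46 in the other 19. Col9a2, Col9a3, Col9a1 and Col19a1 (fibril-associated), Col25a1 and Col17a1 (transmembrane), Col7a1 (anchoring fibrils of skin), Col10a1 (growth plate cartilage) and Col24a1 (fibril-forming) never reached 10, the highest of their values being 8.99 for Col9a2.

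For 5 of the members described below, upstream sequence of the annotated start is shown, because these genes lead the levels or the comparison. The windows come from the RefSeq annotation of build GRCm38.p6, which is not the build of the expression files (mm9), and hold 250 bases before and 50 after a start. In all, 34 of the 42 members matched 37 windows. Col4a1 (minus strand) and Col4a2 (plus strand) lie head to head on chromosome 8, with starts 21 bases apart, so their windows share 78 bases and reads from their first bases could not be told apart without strand. For this pair only the 30 bases around a CCAAT match are shown (chr8:11312954-11312983, minus strand, and chr8:11312761-11312790, plus strand), and for the others the 250 bases before the start: Col1a2 at chr6:4505368-4505617 and Col3a1 at chr1:45311288-45311537, both on the plus strand, and Col8a1 at chr16:57754738-57754987 on the minus strand. Capitals mark a match to CCAAT or TATAAA on either strand (ATTGG is CCAAT read from the other strand).
Col4a1: tgcttgcccgggATTGGcgagccaaggggc
Col4a2: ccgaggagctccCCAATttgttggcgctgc
Col1a2: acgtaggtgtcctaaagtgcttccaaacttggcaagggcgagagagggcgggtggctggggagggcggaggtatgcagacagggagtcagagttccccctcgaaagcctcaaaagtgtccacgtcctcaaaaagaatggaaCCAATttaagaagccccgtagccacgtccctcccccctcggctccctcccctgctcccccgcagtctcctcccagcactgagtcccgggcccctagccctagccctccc
Col3a1: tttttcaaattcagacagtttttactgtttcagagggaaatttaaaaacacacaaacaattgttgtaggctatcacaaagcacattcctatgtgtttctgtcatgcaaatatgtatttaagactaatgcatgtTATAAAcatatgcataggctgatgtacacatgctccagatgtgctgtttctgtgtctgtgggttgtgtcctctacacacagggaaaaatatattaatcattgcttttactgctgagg
Col8a1: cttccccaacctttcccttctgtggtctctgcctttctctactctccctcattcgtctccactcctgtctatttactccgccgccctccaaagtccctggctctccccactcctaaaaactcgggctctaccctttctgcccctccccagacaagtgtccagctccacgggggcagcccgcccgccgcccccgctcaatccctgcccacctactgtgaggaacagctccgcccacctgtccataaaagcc
The first letter of the match lies at position -145 from the start for Col4a1, -32 for Col4a2, -109 for Col1a2 and -117 for Col3a1, and the Col8a1 stretch holds neither word. Col1a2 held another CCAAT match at position 1, on the other strand and past the stretch shown. CCAAT, searched on both strands over 300 bases, was in 13 of the 37 collagen windows (35.1%) and in 37.4% of all 32851 windows of the table. TATAAA was in 5 of 37 (13.5%) and in 13.6% of all windows. The collagen windows thus held these words about as often as promoters at large, and a match is a description of letters only.

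The first comparison sets collagen transcripts of knockout hearts against those of control hearts when both received vehicle. Of the 29 tested genes, 28 had a fitted mean above that of control hearts, where 56.5% of the 13548 genes tested did. Of the 3281 genes in the longest length quartile, 2818 did. The median log2 change of the 29 was 0.97, against 0.07 over all genes tested and 0.39 over the genes of the longest length quartile. One collagen, Col8a1, passed the threshold of an adjusted p of 0.05 in limma, a linear model on log2(value + 1) with Benjamini-Hochberg adjustment over all genes, where 0.244% of all genes were called. At an unadjusted p under 0.05, 14 of the 29 were higher and 0 lower, where 19.8% of all genes were higher. In 1 collagen, Col14a1, every knockout value lay above every control value, which held for 1.45% of all genes.

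Type VIII collagen is a short-chain collagen that forms hexagonal lattices in vessel walls and beneath the corneal endothelium. Col8a1 was at 279, 296, 220.4, 523 and 429.6 in control vehicle libraries 1 to 5, and the 5 knockout vehicle libraries, in the same order, held 1118, 1414, 817, 449 and 1000.0. Knockout library 4 lay within the control range and the other 4 above it. The mean was 349.7 ± 124 (SD, n = 5) in control and 959.7 ± 358 in knockout libraries, and Col8a1 rose in the limma test (log2 change 1.43, SE 0.29, adjusted p = 0.0413). Under rapamycin, Col8a1 was at 637, 407, 474, 523 and 749 in control and 529, 491, 689, 732 and 1207 in knockout libraries, and the ranges overlapped (log2 change 0.34, SE 0.29, adjusted p = 1.00). Its call under vehicle was lost without control vehicle libraries 1 and 3 (adjusted p = 0.515), with the long-minus-short score as a covariate (adjusted p = 0.246), when only the compared groups were fitted (adjusted p = 0.240) and in 12 of 20 fits that left out 1 library. Its partner chain Col8a2, at a lower level, was at 15.6, 15.7, 30.2, 55.1 and 10.2 in control and 111, 158, 23.9, 49.0 and 239 in knockout vehicle libraries (log2 change 1.99, SE 0.60, adjusted p = 0.0903).

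The fibril-associated collagens sit on the surface of fibrils and bridge them to other matrix. All 5 tested members had means above control, with a median log2 change of 1.23, and 4 had an unadjusted p under 0.05, but none was called. Col14a1 was at 156, 194, 162, 332 and 325 in control vehicle libraries 1 to 5, and the 5 knockout vehicle libraries, in the same order, held 428, 651, 378, 462 and 798. With rapamycin, Col14a1 values were 321, 208, 278, 411 and 469.8 in control hearts and 249, 442, 313, 414 and 798 in knockout hearts. Under vehicle the 2 groups of Col14a1 did not overlap, and under rapamycin they did. Col16a1 was at 46.9, 58.9, 53.4, 104 and 154 in control vehicle libraries 1 to 5, and the 5 knockout vehicle libraries, in the same order, held 205, 320.3, 157, 149.8 and 349. The control rapamycin libraries held 213, 111, 101, 196 and 214, and the knockout rapamycin libraries 134, 211, 143, 148 and 412. In Col16a1 the lowest knockout vehicle values, 149.8 and 157, fell beside the highest control value. Col12a1 was at 8.93, 21.6, 25.5, 68.6 and 24.7 in control vehicle libraries 1 to 5, and the 5 knockout vehicle libraries, in the same order, held 147, 158, 31.8, 70.6 and 190.3. In rapamycin-injected mice Col12a1 stood at 176, 76.5, 21.3, 39.4 and 119 in controls and at 75.8, 139, 51.5, 48.1 and 167 in knockouts. Col12a1 spread widely within each group, from 31.8 to 190.3 in knockout vehicle hearts. The fits under vehicle gave Col14a1 a log2 change 1.23, SE 0.30, adjusted p = 0.0743; Col16a1 a log2 change 1.55, SE 0.36, adjusted p = 0.0684; and Col12a1 a log2 change 1.99, SE 0.59, adjusted p = 0.0892. Col20a1 (0.56) and Col22a1 (0.77), the latter known from junctions of muscle and tendon, had smaller fitted log2 changes.

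**Figure D2:**
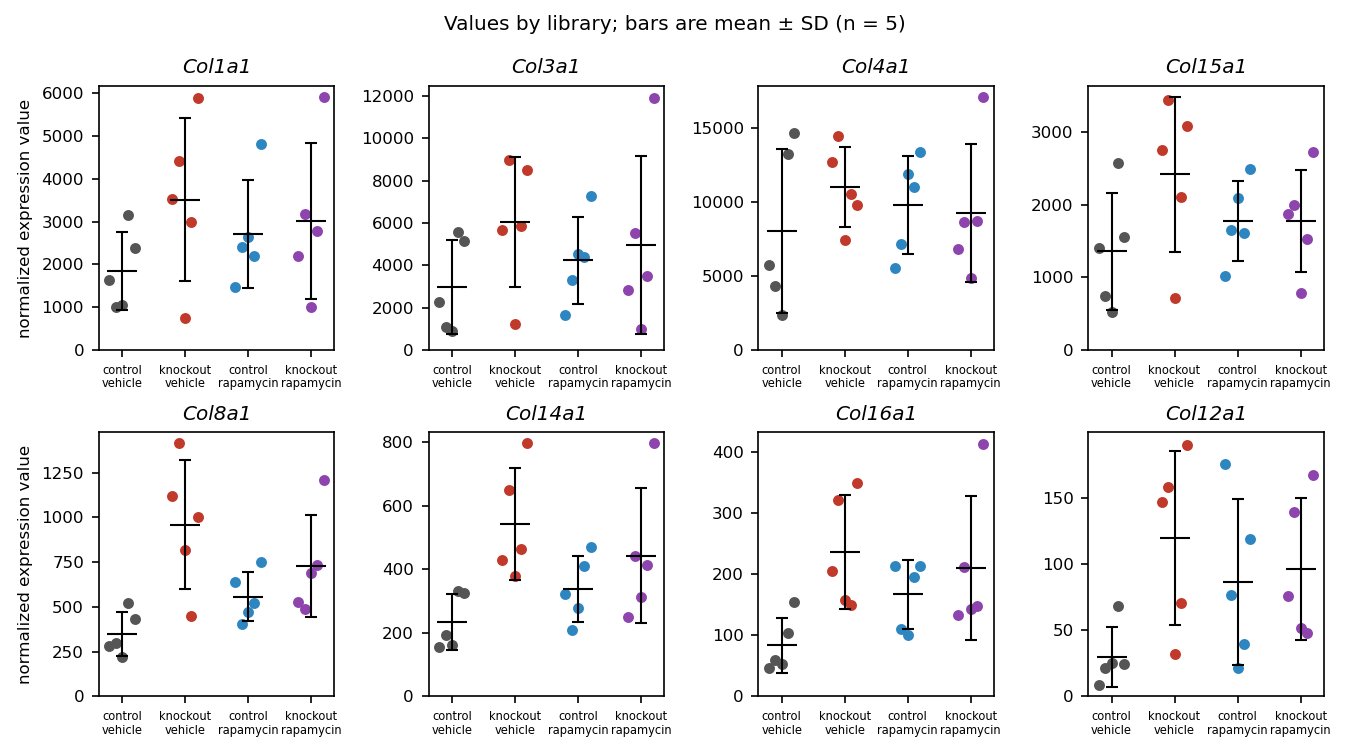
Expression value in every library for 8 collagen genes, with axes from 0; points are libraries in the order 1 to 5, and bars the mean ± SD of 5 libraries per group. In Col8a1 4 of 5 knockout vehicle libraries lie above all control vehicle libraries, while the knockout vehicle values of Col4a1 lie within its control vehicle range.

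Of the fibril-forming chains, all 8 tested had means above control, with a median log2 change of 1.14. Type I collagen, built from Col1a1 and Col1a2 chains, forms the thick fibrils of the cardiac interstitium. Col1a1 was at 1625, 1004, 1056, 3161 and 2383 in control vehicle libraries 1 to 5, and the 5 knockout vehicle libraries, in the same order, held 3537, 4423, 744, 2986 and 5894. Under rapamycin it was at 1478, 2419, 2639.7, 2188 and 4819 in control and 2197, 3174, 995, 2785 and 5916 in knockout libraries. For Col1a1 the knockout vehicle range enclosed that of control, and knockout vehicle library 3 held the lowest value of all 20 libraries. Col1a2 was at 1897, 1830.3, 1485, 3428 and 3377 in control vehicle libraries 1 to 5, and the 5 knockout vehicle libraries, in the same order, held 4328, 5573, 2433, 3604 and 6187. With rapamycin, Col1a2 values were 2933, 2558, 2916, 3257 and 4669 in control hearts and 2493, 4080.3, 2177, 3144 and 6883 in knockout hearts. In Col1a2, 4 of 5 knockout vehicle libraries lay above every control vehicle library. Col3a1 was at 2254, 1081, 877, 5557 and 5132 in control vehicle libraries 1 to 5, and the 5 knockout vehicle libraries, in the same order, held 5687, 8979, 1221, 5865 and 8489.6. The control rapamycin libraries held 1637, 3312, 4552, 4409.7 and 7253, and the knockout rapamycin libraries 2837, 5539, 973, 3493 and 11908. Col3a1, the chain of the thinner type III fibrils, was lowest in control vehicle library 3 and highest in knockout rapamycin library 5, 13.6-fold apart. None was called under vehicle: Col1a1 had a log2 change 0.80, SE 0.50, adjusted p = 0.265, Col1a2 a log2 change 0.89, SE 0.31, adjusted p = 0.102 and Col3a1 a log2 change 1.13, SE 0.65, adjusted p = 0.225.

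Type V collagen is a minor partner that starts fibrils and sets their width. Col5a1 was at 536, 383, 204, 1016 and 868 in control vehicle libraries 1 to 5, and the 5 knockout vehicle libraries, in the same order, held 1252, 1529.6, 461, 968 and 1377. In rapamycin-injected mice Col5a1 stood at 536, 657, 924, 846 and 1201 in controls and at 773, 1119, 399, 648 and 1743 in knockouts. Col5a1 encodes the chain present in most type V trimers, and Col5a2 its partner. Col5a2 was at 277, 257, 123, 712 and 637 in control vehicle libraries 1 to 5, and the 5 knockout vehicle libraries, in the same order, held 937, 1412, 483, 679.9 and 907. Under rapamycin it was at 469, 345, 459, 626 and 820.3 in control and 459, 739, 280.1, 397 and 1327 in knockout libraries. In both genes control vehicle libraries 4 and 5 lay with the knockout libraries and libraries 1 to 3 below most of them. The fitted log2 changes under vehicle were 1.00 for Col5a1, 1.32 for Col5a2 and 1.14 for Col5a3, with adjusted p of 0.127, 0.0994 and 0.192. Col27a1, a fibril-forming chain at low level, was at 8.93, 15.7, 16.2, 20.9 and 10.2 in control and 40.4, 73.1, 57.7, 34.6 and 12.1 in knockout vehicle libraries (log2 change 1.38, SE 0.37, adjusted p = 0.0849). Col11a2, at 0 in 2 libraries, had a fitted change of 1.65 with an SE of 0.94.

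The basement membrane chains, highest in level, had a median log2 change of 0.85 over the 6 genes, all above 0 and none called. Col4a1 and Col4a2 chains together form the common type IV trimer. Col4a1 was at 5734, 4322, 2350.3, 13243 and 14678 in control vehicle libraries 1 to 5, and the 5 knockout vehicle libraries, in the same order, held 12678, 14483, 7447, 10541 and 9818. With rapamycin, Col4a1 values were 5536, 7146, 11886, 11019.7 and 13411 in control hearts and 6825, 8664, 4868, 8746 and 17111 in knockout hearts. The lowest Col4a1 value was that of control vehicle library 3 and the highest that of knockout rapamycin library 5, and Col4a2 had its lowest and highest values in the same libraries. Col4a2 was at 4259, 3298, 1749, 9341 and 10345 in control vehicle libraries 1 to 5, and the 5 knockout vehicle libraries, in the same order, held 8892, 10083, 5359.8, 7803 and 7370.2. The control rapamycin libraries held 3836, 5536, 8241, 8053 and 9489, and the knockout rapamycin libraries 5924, 5211, 3663, 6691 and 11656. In both genes control vehicle libraries 4 and 5 were as high as the highest knockout libraries, and libraries 1 to 3 lay below all knockout libraries. The fits gave Col4a1 a log2 change 0.73, SE 0.42, adjusted p = 0.220, and Col4a2 a log2 change 0.71, SE 0.40, adjusted p = 0.213. Col4a3, Col4a4 and Col4a5, chains of the specialised type IV network known from the kidney filter, had log2 changes of 0.97, 0.97 and 0.73, and Col4a6 of 1.18. Each of these 4 had an unadjusted p under 0.05 and an adjusted p between 0.0974 and 0.124.

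The beaded filaments of type VI collagen link basement membranes to the interstitium, and Col6a1 and Col6a2 encode chains of its trimer. Col6a1 was at 1625, 898, 777, 2395 and 2045 in control vehicle libraries 1 to 5, and the 5 knockout vehicle libraries, in the same order, held 2368, 2667, 1022, 2096 and 3208. In rapamycin-injected mice Col6a1 stood at 1215, 1754, 1999, 1813 and 2290.0 in controls and at 1825, 2382, 997, 1806 and 2931 in knockouts. Col6a1 and Col6a2 each had their lowest value in control vehicle library 3 and their highest in knockout vehicle library 5. Col6a2 was at 1665, 887, 787, 2614 and 1920.2 in control vehicle libraries 1 to 5, and the 5 knockout vehicle libraries, in the same order, held 2738, 2897, 863, 2209.6 and 3471. Under rapamycin it was at 1318, 1888, 2278, 1951 and 2952 in control and 1828, 2747, 1079, 1906 and 3301 in knockout libraries. Knockout vehicle library 3 was near the lowest control values in both genes and the other 4 knockout libraries were at 2096 or more. The fits gave Col6a1 a log2 change 0.59, SE 0.34, adjusted p = 0.219, and Col6a2 a log2 change 0.63, SE 0.38, adjusted p = 0.240. Col6a6 had a log2 change of 0.82.

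Types XV and XVIII are multiplexins, collagens of basement membrane zones whose ends can be released as fragments such as endostatin. Col15a1 was at 1399.5, 744, 529, 2575 and 1550.1 in control vehicle libraries 1 to 5, and the 5 knockout vehicle libraries, in the same order, held 2746, 3434, 718, 2104 and 3079.6. With rapamycin, Col15a1 values were 1021, 1646, 2086, 1613 and 2484 in control hearts and 1865, 1994, 789, 1522 and 2719 in knockout hearts. Col15a1 was lower in knockout vehicle library 3 than in 4 of the 5 control vehicle libraries. Col18a1 was at 158, 192, 158, 325 and 332 in control vehicle libraries 1 to 5, and the 5 knockout vehicle libraries, in the same order, held 295, 386, 161, 334 and 585. The control rapamycin libraries held 211, 260.2, 301, 396 and 802, and the knockout rapamycin libraries 183, 389, 124, 349 and 497. The ranges of Col18a1 overlapped in every comparison. The fits under vehicle gave Col15a1 a log2 change 0.86, SE 0.44, adjusted p = 0.174, and Col18a1 a log2 change 0.56, SE 0.40, adjusted p = 0.331. Of the transmembrane collagens, Col23a1 had a log2 change of 0.85 and Col13a1 of -0.13, the 1 tested member below 0. Col28a1, a low gene at 0 in control vehicle library 1, had 1.32 with an SE of 0.71.

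**Figure D3:**
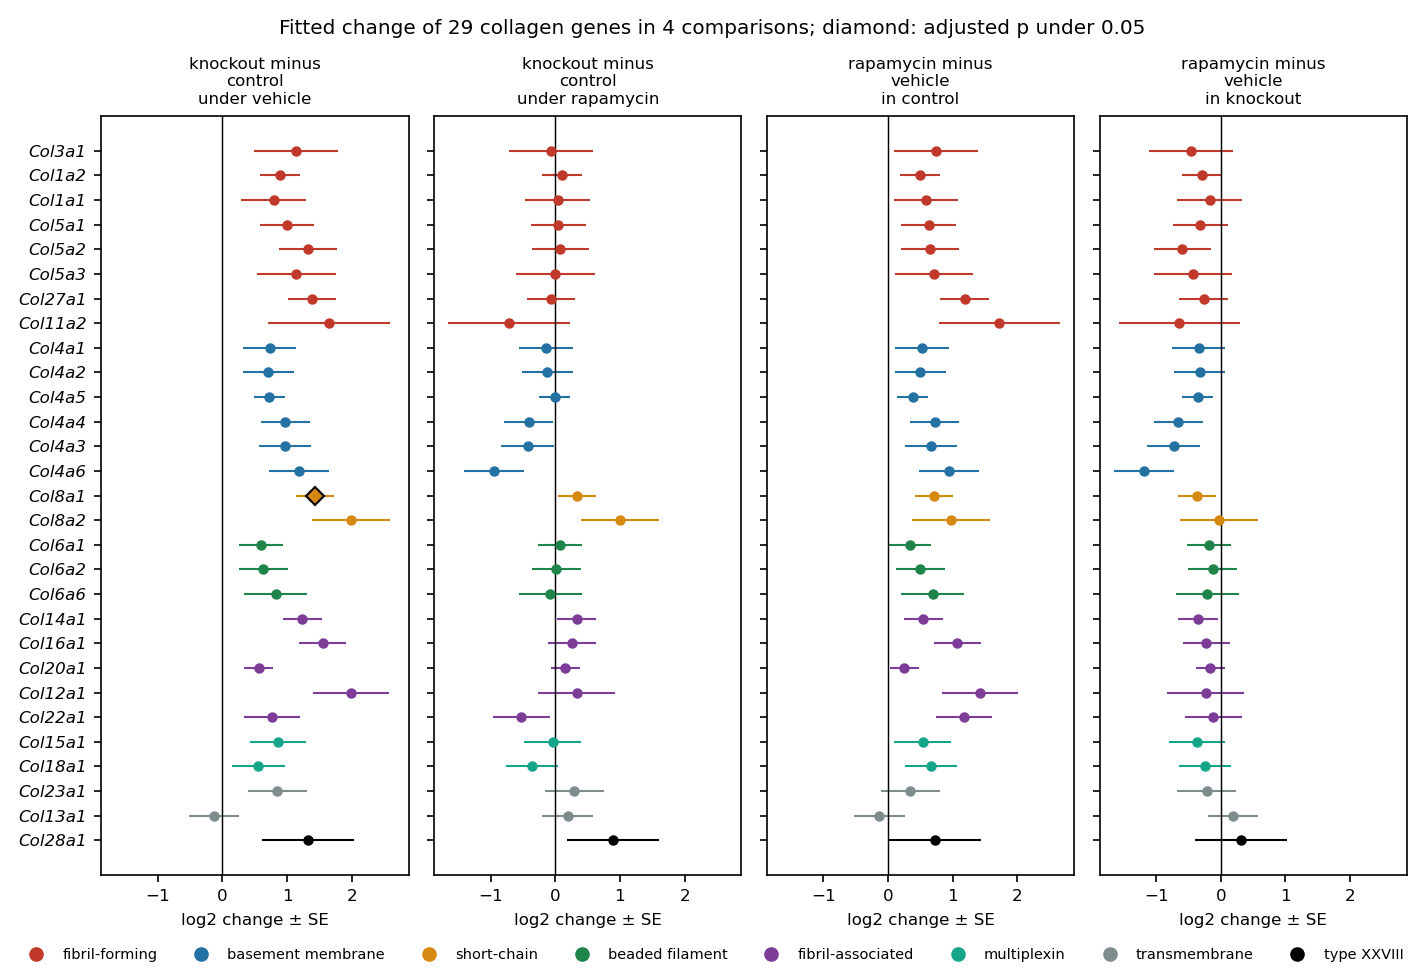
Fitted log2 change ± SE of the 29 tested collagen genes in 4 comparisons, coloured by family, with a diamond where the adjusted p is under 0.05. Under vehicle 28 points lie above 0 and Col8a1 is the 1 diamond; under rapamycin the points scatter around 0 with a median of 0.01.

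Libraries were sequenced in 4 pools named in the labels, and each pool held 1 or 2 libraries of each group. Under vehicle, knockout minus control was above 0 for 28 of 29 members in pool 1, 28 in pool 2, 27 in pool 3 and 22 in pool 4, with median log2 differences of 0.91, 1.71, 1.49 and 0.16. In 20 members the difference was above 0 in all 4 pools. The members moved together between libraries, so these counts are not of independent genes. Each pool difference rests on 1 or 2 libraries per group, and the share of all genes is not given. The differences were smallest in pool 4, where the Col4a1 and Col4a2 values were -0.48 and -0.41. Without control vehicle libraries 1 and 3, 28 members were still above 0, with a median log2 change of 0.56 (all genes 0.03) and 6 members at an unadjusted p under 0.05, and no member was called. With the long-minus-short score as a covariate, 27 were above 0 with a median of 0.59, 6 had an unadjusted p under 0.05 and none was called. The count at an unadjusted p under 0.05 was 9 without control vehicle library 3, 22 without control vehicle library 4 and 21 without knockout vehicle library 3, and 23 with pool as a term of the model. At an adjusted p under 0.05, limma called 9, 343, 36 and 56 of all genes in these fits, against 33 in the main fit. It called 4 without control vehicle libraries 1 and 3 and 6 with the score as a covariate. The share of all genes at an unadjusted p under 0.05 is not given for these fits. Their collagen counts at that level therefore cannot be set against all genes.

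The second comparison sets knockout against control hearts when both received rapamycin. Of the 29 genes, 16 were above 0, where 44.3% of all genes were. The median log2 change was 0.01 (all genes -0.02), and limma called 0 collagens at an adjusted p under 0.05, where 0.0221% of all genes were called. At an unadjusted p under 0.05, 0 collagens were higher, where 1.25% of all genes were, and 0 lower. The most positive fitted changes were those of Col8a2 (1.00) and Col28a1 (0.90) and the most negative that of Col4a6 (-0.95, SE 0.47, adjusted p = 1.00). All 6 type IV chains were below 0, with a median of -0.27. The median over the 29 turned with single libraries: it was -0.22 (8 members above 0) without knockout rapamycin library 5 and 0.30 (23 above 0) without knockout rapamycin library 3.

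The third comparison asks what rapamycin did in hearts that keep Acsl1. Its reference is again the control vehicle group, so it shares those 5 libraries with the first comparison. Here 28 of 29 members were above 0, where 58.6% of all genes were, with a median log2 change of 0.66 (all genes 0.07, the longest length quartile 0.32). In that quartile 2843 of 3281 genes were above 0. No member was called at an adjusted p under 0.05, where 0.0% of all genes were called. At an unadjusted p under 0.05, 5 were higher, where 10.6% of all genes were. These 5 were Col27a1 (1.18), Col12a1 (1.43), Col22a1 (1.18), Col16a1 (1.07) and Col8a1 (0.71), with adjusted p of 0.328 to 0.330. Col27a1 was the 1 member whose groups did not overlap, which held for 0.871% of all genes: it was at 8.93, 15.7, 16.2, 20.9 and 10.2 in control vehicle and 29.9, 22.1, 31.4, 40.7 and 42.7 in control rapamycin libraries. Without control vehicle libraries 1 and 3, 21 of 29 members were above 0, with a median of 0.23 (all genes 0.04), and 1 had an unadjusted p under 0.05. Leaving out control vehicle library 3 alone gave a median of 0.41, and the count at an unadjusted p under 0.05 ran from 2 without control vehicle library 1 to 10 without control vehicle library 5. For these fits the share of all genes at that level is not given, so the counts cannot be set against it.

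The fourth comparison follows rapamycin in hearts without Acsl1. Here 27 of 29 members were below 0, where 53.4% of all genes were, but the changes were small. Their median log2 change was -0.29 (all genes -0.02, the longest length quartile -0.03). Limma called 0 members at an adjusted p under 0.05, where 0.00738% of all genes were called. At an unadjusted p under 0.05 only Col4a6 was lower (log2 change -1.19, SE 0.47, adjusted p = 0.682), where 3.42% of all genes were. Values of Col4a6 were 53.9, 59.6, 19.9, 51.9 and 50.2 in knockout mice given vehicle and 12.4, 38.7, 6.87, 13.7 and 48.9 in those given rapamycin, and the ranges overlapped. The type IV chains had the lowest family median, -0.51, followed by the fibril-forming chains with -0.37. Without knockout rapamycin library 3, 19 members were below 0 with a median of -0.10, and without knockout rapamycin library 5, 27 with a median of -0.51.

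The interaction tests whether the knockout difference under rapamycin differed from that under vehicle. It was below 0 for 28 of 29 members, where 58.6% of all genes were, with a median of -0.91 on the log2 scale (all genes -0.09, the longest length quartile -0.36). In that quartile only 522 of 3281 genes were above 0. No member was called at an adjusted p under 0.05, where 0.0% of all genes were called, and 9 had an unadjusted p under 0.05, where 6.07% of all genes were lower at that level. These 9 were Col4a6 (-2.13), Col27a1 (-1.45), Col4a3 (-1.40), Col4a4 (-1.38), Col16a1 (-1.29), Col22a1 (-1.29), Col8a1 (-1.08), Col14a1 (-0.90) and Col4a5 (-0.74), each with an adjusted p of 0.523. A difference between the genotype effects under the 2 injections was thus not shown for any single collagen. The interaction uses the control vehicle libraries as well, as do the comparisons of genotypes under vehicle and of rapamycin in controls. Without libraries 1 and 3 of that group, 26 members were below 0, with a median of -0.59 (all genes -0.05) and 2 at an unadjusted p under 0.05. For this fit the share of all genes at that level is not given.

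Averaged over injections, knockout minus control was above 0 for all 29 members, where 53.3% of all genes were. The median log2 change was 0.42 (all genes 0.02, the longest length quartile 0.21). In that quartile 2740 of 3281 genes were above 0. Limma called 0 of the 29 members at an adjusted p under 0.05, where 0.443% of all genes were called. Of the members, 11 were higher at an unadjusted p under 0.05, where 10.4% of all genes were. Col8a1 came closest (log2 change 0.88, SE 0.21, adjusted p = 0.0580), followed by Col14a1 (0.78, adjusted p = 0.115) and Col16a1 (0.91, adjusted p = 0.128). Averaged over genotypes, rapamycin minus vehicle was above 0 for 27 members, where 58.5% of all genes were. The median was 0.14 (all genes 0.04), and the longest length quartile had the same median of 0.14. In that quartile 2689 of 3281 genes were above 0. Limma called 0 members there, where 0.125% of all genes were called, and 0 were higher at an unadjusted p under 0.05, where 4.6% of all genes were. Without control vehicle libraries 1 and 3 the averaged genotype difference was above 0 for 25 members with a median of 0.26, and the averaged rapamycin difference for 11, with a median of -0.06, so its direction turned. Fewer of the rapamycin differences were above 0 also without control vehicle library 3 (15 members above 0) or without knockout rapamycin library 5 (16 above 0).

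The members varied together from library to library. The median deviation of the 29 genes from their own means was -0.93, -0.85 and -1.26 on the log2 scale in control vehicle libraries 1, 2 and 3, and 0.16 and 0.09 in libraries 4 and 5. In knockout vehicle libraries 1 to 5 it was 0.56, 0.99, -0.38, 0.34 and 0.77, in control rapamycin -0.12, -0.14, 0.05, 0.22 and 0.61, and in knockout rapamycin -0.05, 0.47, -0.82, -0.09 and 0.90. A few libraries held most of the lowest values: control vehicle 3 was lowest of its group in 16 of 29 members, knockout vehicle 3 in 19 and knockout rapamycin 3 in 19. Knockout rapamycin library 5 was highest of its group in 24 members, control rapamycin library 5 in 18 and knockout vehicle library 2 in 16. Collagen rows summed to 0.0407% of all values in control vehicle library 3 and to 0.308% in knockout rapamycin library 5, the lowest and highest of the 20.

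**Figure D4:**
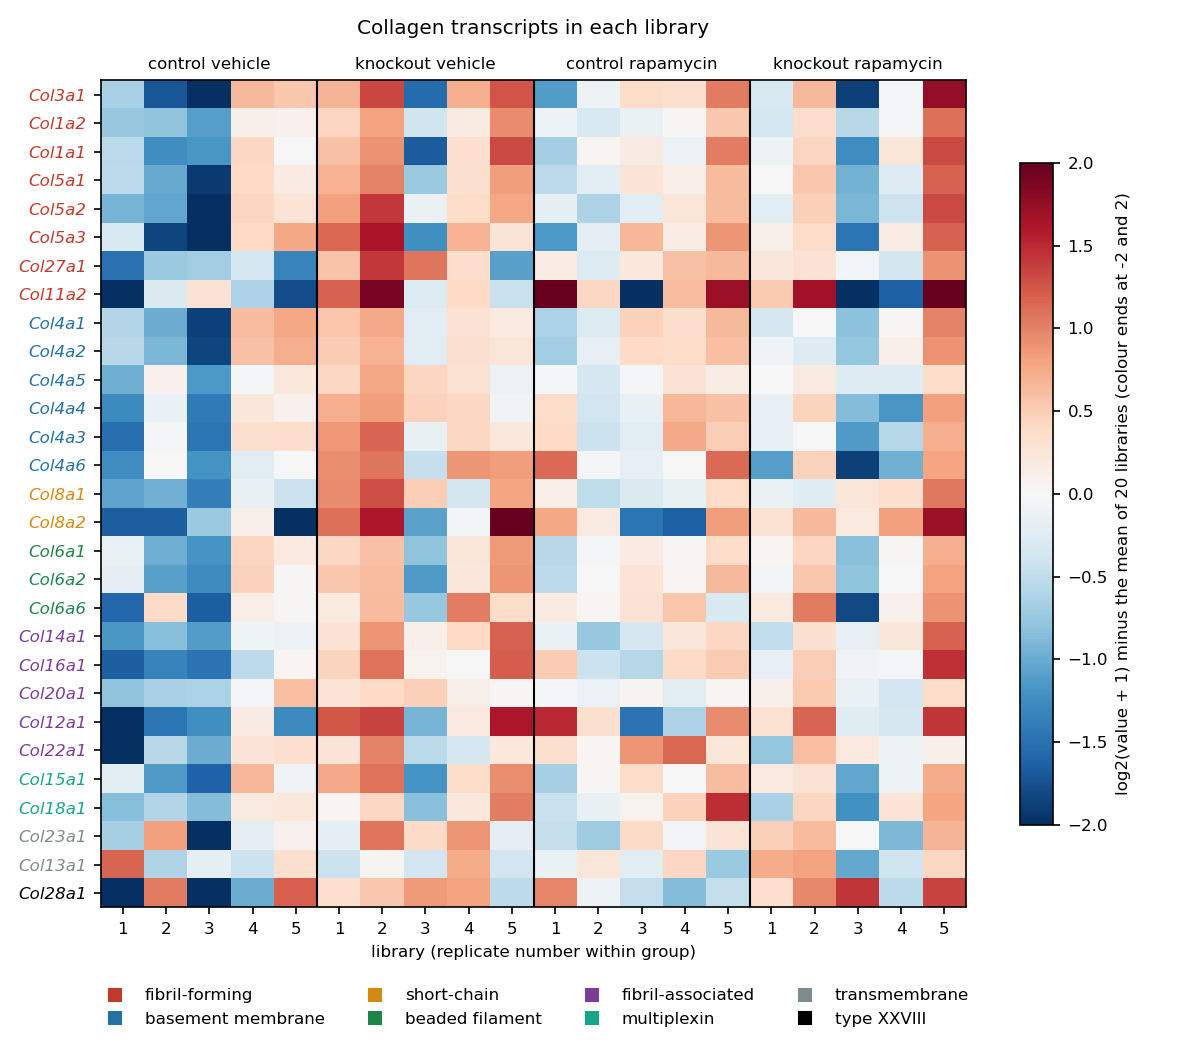
Log2(value + 1) of the 29 tested collagen genes in the 20 libraries, minus the mean of each gene, with blue below and red above it, ends of the scale at -2 and 2, and gene names coloured by family. Columns move as blocks: control vehicle libraries 1 to 3 and knockout rapamycin library 3 are mostly blue, with medians from -1.26 to -0.82, and knockout vehicle library 2 and knockout rapamycin library 5 mostly red.

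Ratios of 2 chains within a library set the shared movement aside. Col4a1 over Col4a2, the pair that starts head to head, was 1.38 ± 0.0982 (SD over 20 libraries) on the deposited scale, with a range of 1.15 to 1.66, although Col4a1 itself ranged 7.28-fold. Col1a1 over Col1a2 ranged from 0.306 in knockout vehicle library 3 to 1.03, Col1a1 over Col3a1 from 0.464 to 1.20, and Col1a1 over Col4a1 from 0.0998 to 0.600. The mean Col1a1 over Col3a1 ratio was 0.777 ± 0.296 in control vehicle and 0.585 ± 0.0840 in knockout vehicle libraries (SD, n = 5; difference in mean log2 ratio -0.34, exact permutation test, two-sided p = 0.262). None of 16 tests of these 4 ratios in the 4 pairwise comparisons passed. The smallest exact permutation p was 0.183, each adjusted p was 0.905 with Benjamini-Hochberg adjustment over 16 tests, and the smallest p the design allows is 0.00794. A difference in the balance between chains was thus not shown.

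Enzymes that modify the chains gave a mixed picture in knockout vehicle hearts. Of 13 tested prolyl and lysyl modification genes, 6 were above and 7 below 0, with a median of -0.09, and none was called. P4hb, the beta subunit of prolyl 4-hydroxylase, had values of 14570, 10480, 12930, 10110 and 9987 in control vehicle hearts and 8668, 7100.0, 6557, 8203 and 10880 in knockout vehicle hearts, with 1 knockout value within the control range (log2 change -0.49, SE 0.14, adjusted p = 0.0892). Glt25d1, a galactosyltransferase that acts on hydroxylysine, was at 1963 ± 249 in control and 1576 ± 136 in knockout vehicle hearts (SD, n = 5; log2 change -0.31, SE 0.09, adjusted p = 0.0892). Leprel1, a prolyl 3-hydroxylase, was at 49.1 ± 17.2 in control and 95.0 ± 19.8 in knockout vehicle hearts (log2 change 0.97, SE 0.29, adjusted p = 0.0892). Of 5 tested folding and export genes, 2 were above 0, with a median of -0.28. Fkbp10, a chaperone of procollagen, was at 969, 1099, 1453, 917 and 970.3 in the control vehicle group. It was at 647, 612, 524, 998 and 932 in the knockout vehicle group (log2 change -0.57, SE 0.17, adjusted p = 0.0892) and at 1080.0, 1121, 1451, 1330.0 and 1190.0 in the knockout rapamycin group. Every knockout rapamycin value of Fkbp10 lay above every knockout vehicle value, which held for 0.62% of all genes, with a log2 change of 0.77 and an adjusted p of 0.152. Sec23a and Sec13, coat proteins of export vesicles, had log2 changes of 0.18 and -0.28 under vehicle, knockout minus control (adjusted p = 0.172 and 0.178). Serpinh1, the collagen chaperone Hsp47, was at 9671 ± 3895 in control and 7803 ± 2427 in knockout vehicle hearts (log2 change -0.28, SE 0.26, adjusted p = 0.442), a gene chosen after its values were seen.

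Genes that act on collagen outside the cell mostly had fitted changes above 0 in knockout vehicle hearts, and none was called. All 7 tested propeptide cleavage genes were above 0 (median 0.30), among them Adamts2, which removes the amino-terminal propeptide, at 356 ± 134 in control and 664 ± 185 in knockout vehicle hearts (log2 change 0.93, SE 0.27, adjusted p = 0.0892). Its relative Adamts3 had a log2 change of 0.30 (adjusted p = 0.192), and Pcolce2, an enhancer of carboxy-terminal cleavage, of 0.19 (adjusted p = 0.238). All 5 cross-linking oxidases were above 0 (median 0.66). Loxl3 was at 126, 74.5, 80.3, 136 and 131 in control and 246, 297, 161, 138 and 314 in knockout vehicle libraries (log2 change 1.04, SE 0.25, adjusted p = 0.0717). The groups did not overlap, which held for 1.45% of all genes, but only by 138 against 136. Lox had a log2 change of 0.83 (adjusted p = 0.118) and Loxl1 of 0.65 (adjusted p = 0.251). Of 7 fibril-binding genes, 6 were above 0 (median 0.59): the leucine-rich proteoglycan Dcn (decorin) was at 15920 ± 1180.0 in control and 22390 ± 5118 in knockout vehicle hearts (log2 change 0.47, SE 0.13, adjusted p = 0.0890), Lum (lumican) had 0.71 (adjusted p = 0.0892) and Thbs2 (thrombospondin 2) 0.78 (adjusted p = 0.0882). Dcn was the 1 gene of these companion lists called in another comparison, knockout minus control averaged over injections (log2 change 0.44, SE 0.10, adjusted p = 0.0422). In that comparison 0.443% of all genes were called. Of 8 tested receptors, 7 were above 0 (median 0.66), with Mrc2, an uptake receptor for collagen, at 390.5 ± 75.8 in control and 674 ± 178 in knockout vehicle hearts (log2 change 0.77, SE 0.20, adjusted p = 0.0799), the integrin chain Itga11 at a log2 change of 1.27 (adjusted p = 0.0966) and the receptor kinase Ddr2 at 0.63 (adjusted p = 0.104).

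Markers of the cells in ventricle moved with the collagens in part. The 10 cardiac fibroblast markers, of which Dcn and Lum are also in the fibril-binding list, summed to 62520 to 74520 in control vehicle and 88910 to 140400 in knockout vehicle libraries, without overlap; all 10 had fitted changes above 0 under vehicle (56.5% of all genes did), and 8 were higher at an unadjusted p under 0.05 (19.8% of all genes were), with none called. Averaged over injections, limma called the fibroblast markers Gsn (log2 change 0.53, adjusted p = 0.0191), Pdgfra (0.83, adjusted p = 0.0391) and Dcn, and the activated fibroblast marker Cilp (1.641, adjusted p = 0.0434) higher in knockout hearts. In that comparison 0.443% of all genes were called. The sums of the 10 fibroblast markers were 67370 to 92300 in control rapamycin and 90110 to 137000 in knockout rapamycin libraries, where the median log2 change of the collagens was 0.01. The 7 activated fibroblast markers summed to 882 to 2204 and 1842 to 8648 under vehicle. Endothelial markers (7) summed to 19930 to 42530 and 28030 to 32420, with control vehicle libraries 4 and 5 highest of their group at 33790 and 42530, and smooth muscle and pericyte markers (8) to 24120 to 31730 and 26840 to 32420. Atrial markers (6), which ventricle should hold at low level, summed to 1420 to 6129 in control vehicle, 4250 to 66950 in knockout vehicle, 1710 to 35740 in control rapamycin and 8998 to 62340 in knockout rapamycin libraries. The collagen medians ran from -1.26 to 0.16 in control vehicle and from -0.38 to 0.99 in knockout vehicle libraries. Some single libraries followed the same order in both measures and others did not, and why was not tested. Knockout vehicle library 3 had the lowest atrial sum of its group, 4250, and was lowest in 19 of 29 collagens, whereas knockout vehicle library 4 had the highest atrial sum, 66950, at a collagen median of 0.34. Knockout rapamycin library 5, with the highest collagen share of the 20 libraries, had an atrial sum of 9148, and control vehicle library 5 had 1507 at a collagen median of 0.09. All 5 tested atrial markers were higher at an unadjusted p under 0.05 under vehicle, where 19.8% of all genes were, with a median log2 change of 3.86 and none called. Bmp10 was listed at 0 in all 5 control rapamycin libraries. The 5 measured of 7 erythroid markers summed to 13540 to 46570 in knockout vehicle and 60620 to 155200 in control vehicle hearts. Of these, the globin genes Beta-s (log2 change -1.999, adjusted p = 0.0289) and Hba-a2 (-1.80, adjusted p = 0.0404) were called lower in limma under vehicle, and also averaged over injections (-1.31 and -1.20, adjusted p = 0.0391 and 0.0431). Over all genes, 0.244% were called under vehicle and 0.443% averaged over injections. Macrophage markers (6) summed to 4186 to 5183 in control and 4956 to 7423 in knockout vehicle hearts, and skeletal muscle markers (6) to 3413 to 6834 and 3700 to 13640. Cartilage and valve markers (5) summed to 46.9 to 86.4 in control and 29.8 to 145 in knockout vehicle hearts; the 4 tested had fitted changes above 0, with a median of 0.96 and 1 at an unadjusted p under 0.05, and Matn1 was listed at 0 in all 5 knockout vehicle libraries. Epicardial and mesothelial markers (5) summed to 131.7 to 544 and 58.8 to 449, with 1 of 5 above 0 and a median of -0.50. No marker of the fibroblast, endothelial or smooth muscle lists was at 0 in a whole group, and the 7 cardiomyocyte markers summed to 1523000 or more in every library. With the mean of the atrial markers as a covariate, 28 of 29 collagens were above 0 under vehicle with a median of 0.67, the number at an unadjusted p under 0.05 fell from 14 to 5, and none was called. With that covariate 7 of all genes were called under vehicle, against 33 in the main fit. How the share of all genes at an unadjusted p under 0.05 moved is not given. The part of the other markers in the collagen result was not tested.

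**Figure D5:**
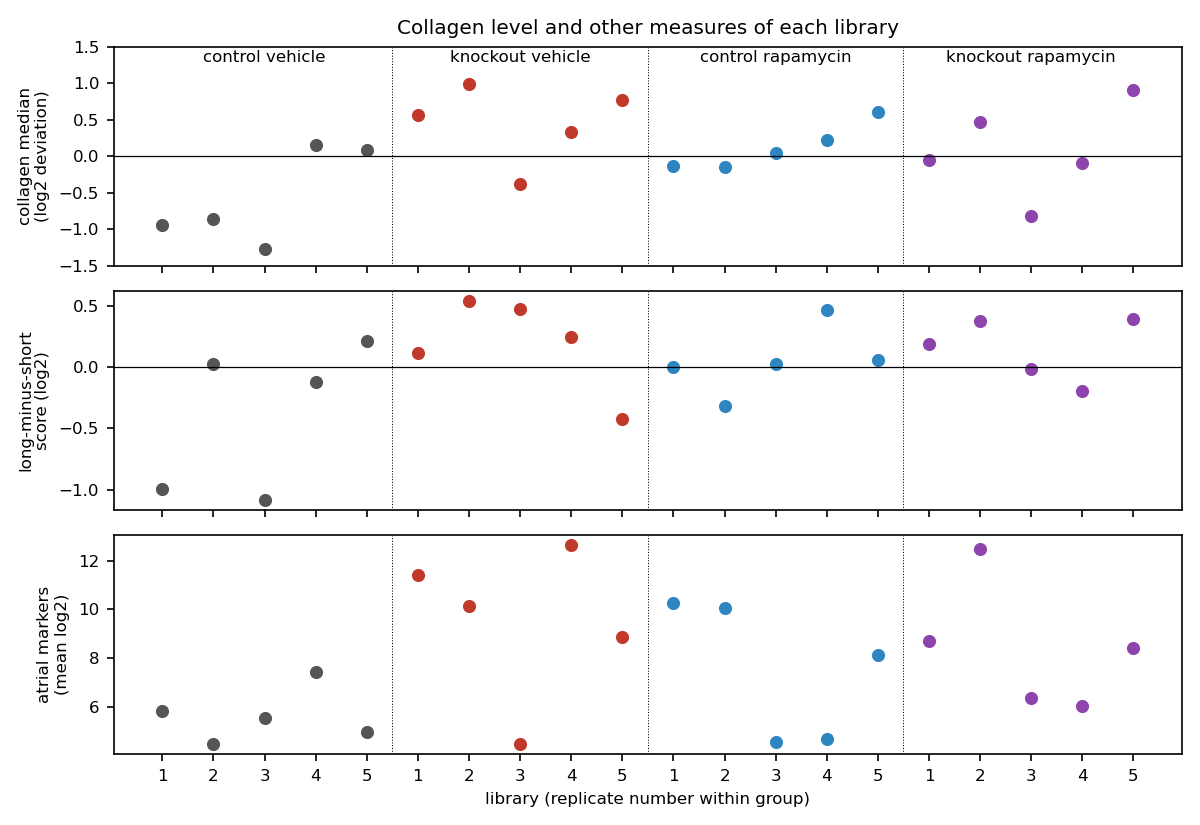
Measures of each of the 20 libraries: the median log2 deviation of the 29 collagens (top), the long-minus-short score (middle) and the mean log2(value + 1) of 6 atrial markers (bottom). Control vehicle libraries 1 and 3 are low in the first 2 measures, at -0.93 and -1.26 and at -0.99 and -1.08, while control vehicle library 2 is low in collagen at -0.85 with a score of 0.03.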

How the data were processed

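Poly(A) libraries from 20 ventricle samples, 5 in each of 4 groups set by the labels, were sequenced by the submitters. Per the submitters' processing notes, Picard 1.64, SAMtools and RSEM were used with build mm9; which tool did what is not stated in the labels. The deposited table holds RSEM gene estimates that the authors scaled to a common upper quartile per library, a normalized signal and not counts. Of low values, 87.8 to 89.4% were whole multiples of a step within 0.05 reads, too few to recover reads, so no count model was used and depth is approximate.

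Genes with a value of 10 or more in 5 or more libraries (13548) were tested with limma 3.58.1 in R 4.3.3 on log2(value + 1), so changes of low genes are understated. The model had 1 mean per group over all 20 libraries, with eBayes trend and Benjamini-Hochberg adjustment over all genes. The long-minus-short score is the mean log2 deviation of the longest quartile of genes less that of the shortest. Lengths are of the longest protein-coding transcript in GENCODE M21. The fit was tested on simulated data with noise drawn independently for each gene and library. Such data lack the shared movement of genes between libraries seen here. Alternatives changed the pseudocount, filter, normalization, pool term, replicate block, libraries fitted, weights and covariates; the atrial covariate was chosen after seeing the data. Values in every library are given for members called in any comparison, for those with the largest changes at a mean of 100 or more, and for a fixed list of main chains; of companion lists, the 3 genes with the smallest p under vehicle are named. The members and lists were chosen with earlier results of these data known. The p-values measure the spread between these 20 libraries. Protein features were not computed here.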

Additional observations from a re-analysis of the deposited data

Results flagged for a closer look

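In 68 groups of 5 libraries, taken over 15 members, the summed collagen share and the collagen median, the gap between an extreme library and its neighbour was compared with the range of the group (Dixon's critical value 0.71), and chance alone marks about 1 in 20 groups. Col12a1 in control vehicle library 4 was at 68.55, where the other 4 libraries of the group were at 8.93 to 25.5. Col16a1 in knockout rapamycin library 5 was at 412.5, where the others were at 133.6 to 210.9.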

How the results depend on the processing

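Under vehicle, 1 collagen was called; the count was 0 with no filter on low values, when only the groups compared were fitted, with robust empirical Bayes and array weights, without control vehicle libraries 1 and 3, with the long-minus-short score as a covariate and with the atrial marker mean as a covariate, and 3 with the replicate block (Col8a1, Col14a1 and Col16a1). Leaving out 1 library at a time gave 0 to 11: 5 without control vehicle library 4, 11 without control vehicle library 5, 5 without knockout vehicle library 5 and 2 without knockout rapamycin library 5. Of all 13548 genes, these fits called 343, 3089, 2565 and 50 in the same order, and the fit with the replicate block 49. All of these fits called more genes than the 33 of the main fit, but the collagen counts did not follow in proportion. The same 5 collagen calls came with 343 and with 2565 genes. The pool term called 56 genes and 1 collagen, Col8a1, where the replicate block called 49 genes and 3 collagens. Averaged over injections the count of 0 became 2 with the replicate block and 0 to 2 when 1 library was left out. Of all genes, 62 were called there with the replicate block, against 60 in the main fit. For rapamycin in knockout hearts, the long-minus-short score as a covariate gave 1 collagen (Col4a5). That fit called 227 of all genes, against 1 in the main fit. The cause was not tested. Same-numbered libraries did not deviate together (30 pairs, r from -0.52 to 0.43, 10 of them over 0.1; 4 libraries correlated best with their own number), so the numbers were not taken to pair animals. Col8a1 kept its direction in 20 fits without 1 library (log2 change 1.26 to 1.68, adjusted p up to 0.187) and in 13 other alternatives (1.14 to 1.51, adjusted p up to 0.515), and was called in 8 and 7 of them. Over all genes, the number called under vehicle ran from 3 (only the groups compared) to 3089 (without control vehicle library 5), against 33. Quantile normalization moved the median log2 change of all genes under vehicle from 0.07 to -0.04; the collagen median was then 0.80, with 28 members above 0. The depth is known only approximately, which limits what can be said of members with low values such as Col11a2 and Col22a1.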
